A study of Mus musculus with 292 samples.

Results

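The cerebral cortex of mice was compared late and early in the night, at ZT21 and at ZT15. Zeitgeber time (ZT) is by convention counted in hours from lights-on, and both times fall in the dark phase, when mice are active. The comparison took every cortex library labelled ZT21 (6 libraries) and every one labelled ZT15 (6 libraries), which makes 12 of the 78 cortex libraries and of the 292 libraries of the series. The series sampled cortex, striatum, hypothalamus and liver of mice every 3 h over 36 h and sequenced their messenger RNA. Both groups were wild-type C57BL/6J males aged 26 weeks, with no treatment named in the labels, and each library was made from total RNA of the right-hemisphere cortex of 1 mouse. The 6 cortex libraries at ZT18 served as the step between the groups, and hypothalamus and liver of the same 12 mice served for comparison. The question is which transcripts of the cortex change within the night.

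The circadian clock of mammalian cells is a feedback loop of transcription. The activators CLOCK and BMAL1 (encoded by Arntl) drive the genes of their own repressors, the period and cryptochrome proteins, CIART and the BHLHE40/41 pair, and those of the nuclear receptors REV-ERB alpha and beta (Nr1d1 and Nr1d2), which repress Arntl in turn. DBP, TEF and HLF, a family of activators with a shared DNA-binding domain, carry the rhythm to output genes. In the cortex, transcripts also follow waking, synaptic activity and corticosterone, the adrenal steroid of rodents, which is high around the start of the active phase.

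Late and early night differed in transcripts of the circadian clock. Transcripts of the clock's repressors and output factors (Ciart, Nr1d1, Nr1d2, Dbp and Bhlhe41) were lower at ZT21, as were Coq10b, Mthfd1l and Wnt4, while Sorcs3, Mcam and Mmp14 were higher. These 11 genes were called with all 12 libraries and with each library left out in turn. They were also called in 3 further fits, chosen after seeing the data, that left out or adjusted for libraries that stood apart. The 11 were singled out by these calls after their values were seen. Many more genes passed the test with all 12 libraries, but most of those calls depended on which libraries were in the fit.

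Counts per gene were tested with edgeR's quasi-likelihood test, with Benjamini-Hochberg adjustment over all genes tested and a threshold of 0.05 for a call. Levels are in CPM, the count of a gene scaled to the total count of its library, and fold changes are log2 of ZT21 over ZT15 with their standard error. Total counts were 28.8 to 40.05 mega counts per library at ZT21 and 29.7 to 36.2 mega counts at ZT15. Of 17863 genes tested, 1362 were called, 7.62%. Of these, 747 were higher at ZT21 (4.18% of the genes tested) and 615 were lower (3.44%). Most changes were small, with a median size of 0.33 on the log2 scale, and 276 of the called genes differed by at least 1.5-fold, 211 of them higher and 65 lower. The ranges of the 2 groups did not overlap in 431 genes, 2.41% of those tested. The median log2 fold change over all genes tested was -0.00.

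The ZT15 libraries differed among themselves in RNA outside the clock. Gm42418, an annotated model on ribosomal RNA sequence, was at 444 to 4455 CPM at ZT21 (median 1089), against 459 to 23839 CPM at ZT15 (median 10246), where replicates 3, 5 and 6 held 15673, 23839 and 19771 CPM. The same 3 libraries held the least RNA of 10 markers of striatal projection neurons, whose nucleus lies beneath the cortex. The summed markers were at 825 to 2412 CPM at ZT21 (median 1448) and 302 to 1454 CPM at ZT15 (median 775), with 479, 302 and 567 CPM in those replicates. No striatal marker was at 0 in any of the 12 libraries. Over all 78 cortex libraries the sum ran from 235 to 7779 CPM.

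**Figure D1:**
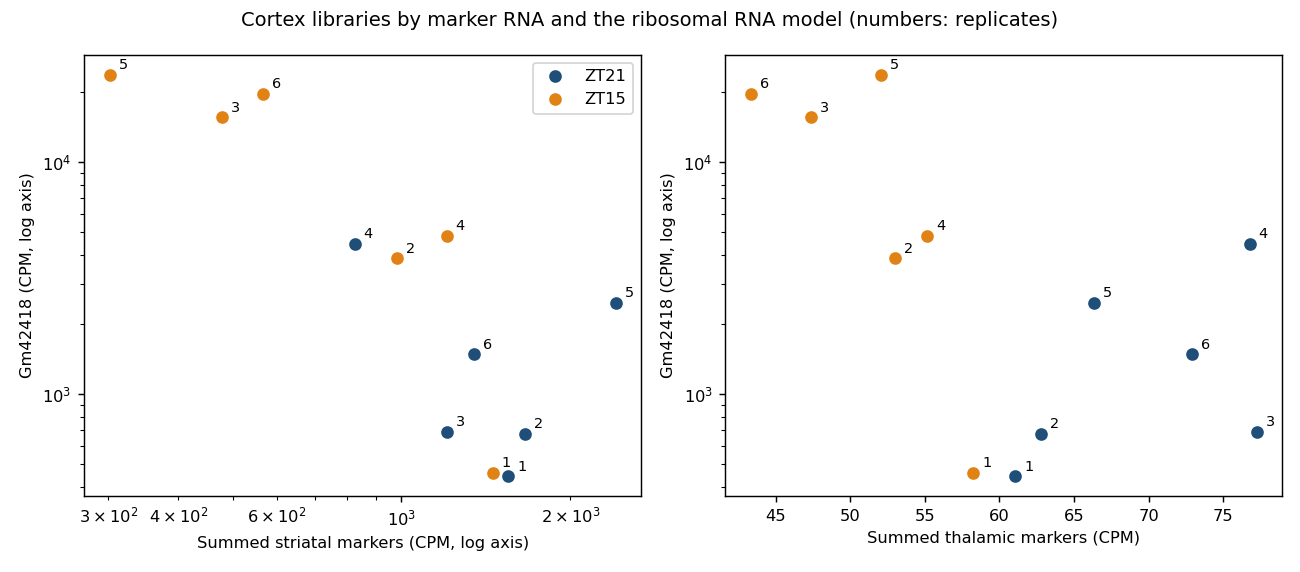
Gm42418, a model over ribosomal RNA sequence, against the summed CPM of striatal markers (left, both axes log) and of thalamic markers (right, horizontal axis linear) in each cortex library, with ZT21 in blue, ZT15 in orange and the replicate number beside each point. ZT15 replicates 3, 5 and 6 sit at the top left of the left panel, above 15000 CPM of Gm42418. The 2 groups do not overlap in the sum of thalamic markers.

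With these 3 ZT15 libraries left out, 12 genes were called, 3 higher and 9 lower at ZT21. With the striatal sum as a covariate there were 13 calls (4 higher and 9 lower), and with Gm42418 as a covariate 14 (5 higher and 9 lower). The direction of all 1362 genes was kept without the 3 libraries, but their fold changes shrank to 0.68 of their size (median ratio of the log2 values). These genes were chosen by the fit with all 12 libraries, and the smaller fit reuses the remaining ones. Kept direction and smaller size thus follow in part from that choice, and neither is independent evidence. Single libraries also moved the count. It was 332, 71, 509, 1139, 806 and 687 without ZT21 replicates 1 to 6 in that order, and 3440, 813, 84, 1949, 176 and 401 without ZT15 replicates 1 to 6. Counts of list members given below for any of these fits are to be read against the total of the same fit. ZT15 replicate 1, whose removal gave the most calls, held 1454 CPM of striatal markers. Without ZT21 replicate 4, the count of 1139 comprised 641 higher and 498 lower genes, 963 of them among the 1362.

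**Figure D2:**
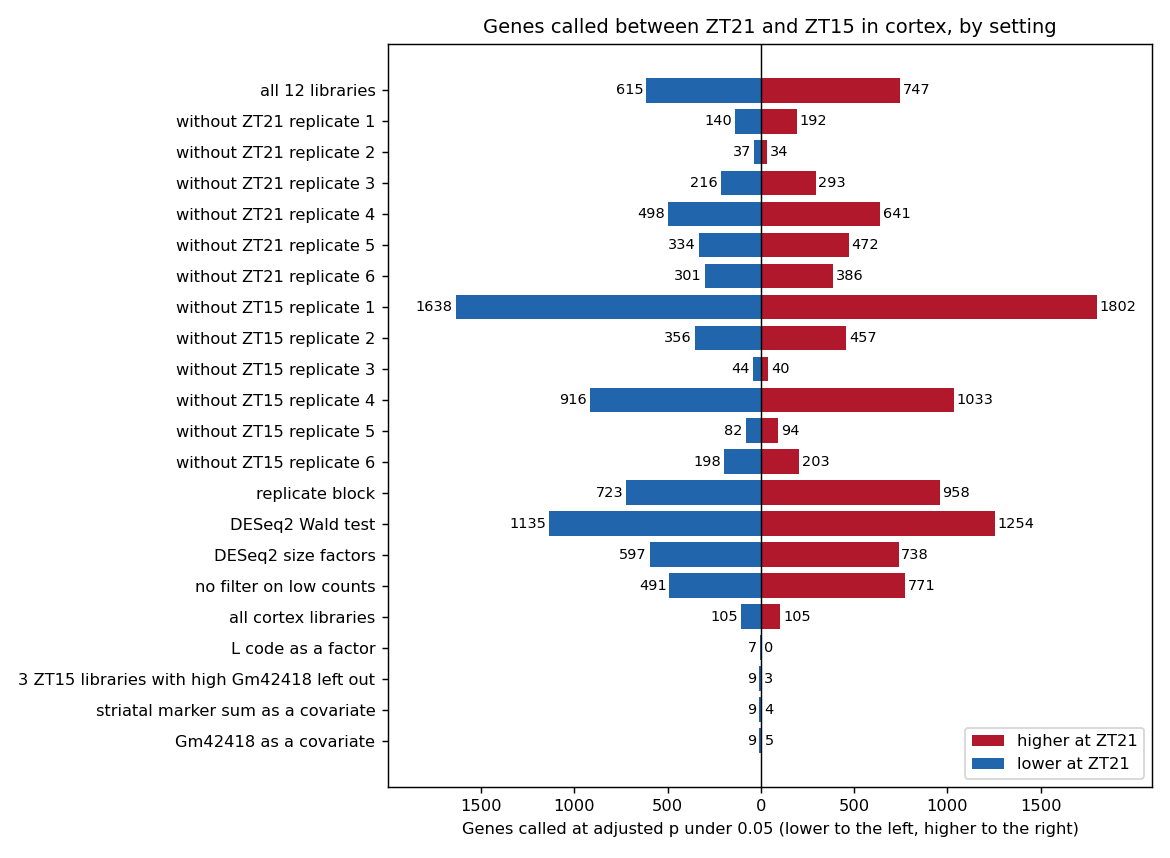
Number of genes called at an adjusted p under 0.05 in each setting, with genes higher at ZT21 to the right (red) and lower ones to the left (blue) on 1 linear axis. The bars run from 747 and 615 genes with all 12 libraries to 5 and 9 with Gm42418 as a covariate and 0 and 7 with the L code as a factor.

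The labels carry a code (the L code), whose meaning they do not give, and the 2 groups share the codes L6 and L7. With the code as a factor 7 genes were called, 0 higher and 7 lower, among them Ciart, Nr1d1, Nr1d2, Dbp, Mthfd1l and Plin4. L6 and L7 together hold 4 ZT21 and 2 ZT15 libraries. Within L6, Ciart had a mean of 11.03 CPM over 2 ZT21 libraries and was at 23.4 CPM in 1 ZT15 library. Within L7, it had a mean of 9.37 CPM over 2 ZT21 libraries and was at 20.6 CPM in 1 ZT15 library. For the remaining codes, the code and the time of night cannot be told apart. Of the 11 genes, Bhlhe41, Coq10b and Wnt4 were not called with the L code as a factor (edgeR adjusted p = 0.079, 0.19 and 0.15), nor were Sorcs3, Mcam and Mmp14 (0.29, 0.15 and 0.59). Wnt4 was also not called with all 78 cortex libraries in the fit (edgeR adjusted p = 0.073).

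Ciart, also named Chrono, encodes a repressor of CLOCK and BMAL1 and showed the largest difference of the 11 genes. Its transcript (ENSMUSG00000038550, chr3:95878503-95882251, minus strand, all gene positions from GENCODE M21 on GRCm38) was at 8.90 to 12.7 CPM at ZT21 (median 9.58) and at 20.6 to 24.0 CPM at ZT15 (median 22.1). Each ZT21 library thus lay below each ZT15 library. The log2 fold change was -1.12 ± 0.09 (edgeR adjusted p = 3.2e-05), with 10.4 ± 1.65 CPM at ZT21 and 22.2 ± 1.32 CPM at ZT15 (SD, n = 6 each). Without ZT21 replicate 4, the highest of its group in Ciart, it was -1.19 (edgeR adjusted p = 8.1e-06).

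CLOCK and BMAL1 bind the E-box, whose canonical form is CACGTG, and DBP, TEF and HLF bind the D-box, searched here as TTATGTAA. The promoters of Ciart, Bhlhe41 and Coq10b are shown because they are the 3 of the 11 genes with a CACGTG in the window from 250 bases before the start to 50 after it, by RefSeq on GRCm38.p6. Each sequence covers the 250 bases before the start, in the direction of transcription, at chr3:95882229-95882478 (minus strand) for Ciart, chr6:145865421-145865670 (minus strand) for Bhlhe41 and chr1:55052520-55052769 (plus strand) for Coq10b. Capitals mark the motifs.
Ciart: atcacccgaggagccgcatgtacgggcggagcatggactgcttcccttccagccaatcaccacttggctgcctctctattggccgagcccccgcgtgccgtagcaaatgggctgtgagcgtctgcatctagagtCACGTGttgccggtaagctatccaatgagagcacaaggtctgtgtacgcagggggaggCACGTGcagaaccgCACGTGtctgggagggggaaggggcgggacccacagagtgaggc
Bhlhe41: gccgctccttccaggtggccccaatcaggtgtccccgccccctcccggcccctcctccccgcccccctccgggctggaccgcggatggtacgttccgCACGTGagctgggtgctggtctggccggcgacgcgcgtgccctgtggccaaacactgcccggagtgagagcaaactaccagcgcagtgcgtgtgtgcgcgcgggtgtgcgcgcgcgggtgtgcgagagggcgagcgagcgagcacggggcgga
Coq10b: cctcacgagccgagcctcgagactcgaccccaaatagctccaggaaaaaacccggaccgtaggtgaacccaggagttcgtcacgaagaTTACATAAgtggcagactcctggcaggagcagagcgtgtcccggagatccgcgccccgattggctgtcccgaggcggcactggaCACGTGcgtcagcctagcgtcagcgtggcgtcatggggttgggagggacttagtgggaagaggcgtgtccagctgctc

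The Ciart promoter holds 3 copies of CACGTG, which begin 116, 58 and 44 bases before the start, Bhlhe41 holds 1 at 153 bases, and Coq10b holds 1 at 78 bases and a D-box on the opposite strand at 162 bases. Over both strands, 7.15% of the 32851 promoter windows of RefSeq hold a CACGTG and 0.938% a D-box. Of the 12153 tested genes with a window, 11.1% hold a CACGTG. Among the called genes the share was 9.28% of the 539 higher at ZT21 and 13.97% of the 451 lower at ZT21. Mcam holds the cyclic AMP response element TGACGTCA in its window. The windows of Nr1d1, Nr1d2, Dbp, Wnt4, Mthfd1l, Sorcs3 and Mmp14 hold none of these 3 motifs. A match is a run of letters and no measure of binding.

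REV-ERB alpha and beta are the repressors of Arntl. Nr1d1 (ENSMUSG00000020889, chr11:98767932-98775333, minus strand) was at 47.9 to 68.6 CPM at ZT21 (median 63.6) and at 93.3 to 107 CPM at ZT15 (median 102). With no overlap between groups, the log2 fold change was -0.74 ± 0.08 (edgeR adjusted p = 0.00028). Nr1d2 (ENSMUSG00000021775, chr14:18204054-18239127, minus strand) was at 122 to 150 CPM at ZT21 (median 136) and at 146 to 199 CPM at ZT15 (median 184). The highest ZT21 library lay above the lowest ZT15 library, and the log2 fold change was -0.42 ± 0.06 (edgeR adjusted p = 0.0076). Of the exonic bases of Nr1d1, 8.55% are shared with Thra, so part of its count is uncertain.

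Dbp, the clock output factor, and Bhlhe41, a repressor that binds E-boxes, were lower at ZT21 as well. Dbp (ENSMUSG00000059824, chr7:45705088-45710203, plus strand) was at 31.9 to 49.9 CPM at ZT21 (median 41.1) and at 63.7 to 76.8 CPM at ZT15 (median 70.2), a log2 fold change of -0.81 ± 0.09 (edgeR adjusted p = 0.00046). Bhlhe41 (ENSMUSG00000030256, chr6:145858243-145865558, minus strand) was at 25.9 to 38.3 CPM at ZT21 (median 29.6) and at 44.2 to 54.5 CPM at ZT15 (median 48.8), a log2 fold change of -0.74 ± 0.08 (edgeR adjusted p = 0.00033). Neither gene had overlapping groups. Dbp shares 18.0% of its exonic bases with Sphk2 and Bhlhe41 shares 19.1% with Gm43909.

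**Figure D3:**
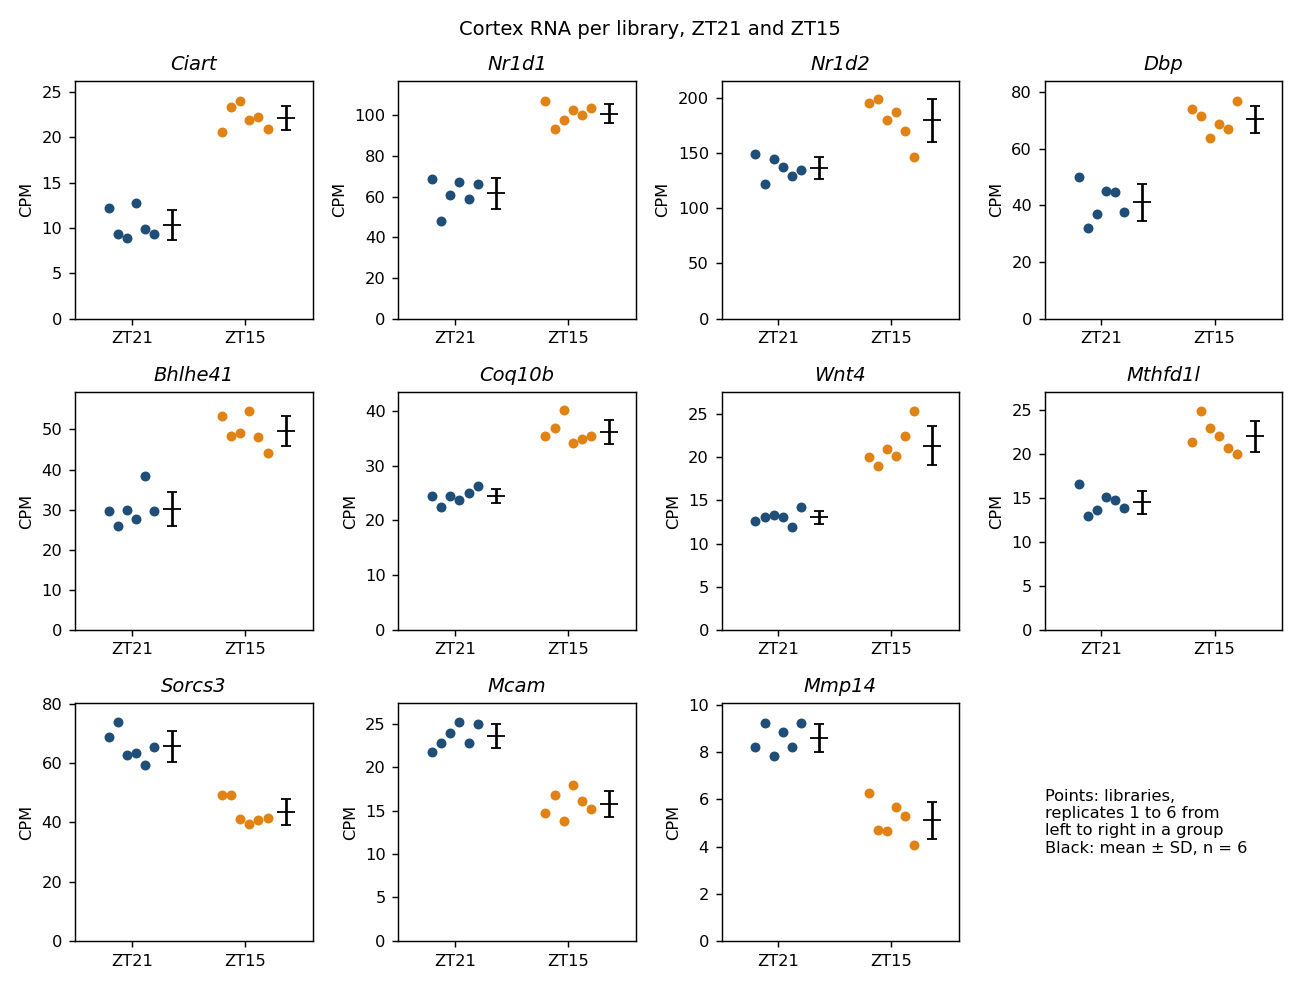
CPM of the 11 genes in each cortex library (linear axes from 0), with ZT21 in blue on the left and ZT15 in orange on the right, points for libraries and black bars for mean ± SD (n = 6 each). The groups overlap in Nr1d2 alone among the 11 panels, and Ciart is at 8.90 to 12.7 CPM at ZT21 and 20.6 to 24.0 CPM at ZT15.

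Coq10b and Mthfd1l encode mitochondrial proteins. Coq10b, which binds coenzyme Q (ENSMUSG00000025981, chr1:55052770-55072702, plus strand), was at 22.52 to 26.4 CPM at ZT21 (median 24.5) and at 34.1 to 40.1 CPM at ZT15 (median 35.4). This is a log2 fold change of -0.59 ± 0.06 (edgeR adjusted p = 0.00015). Mthfd1l, an enzyme of mitochondrial one-carbon metabolism (ENSMUSG00000040675, chr10:3973118-4167081, plus strand), was at 12.9 to 16.6 CPM at ZT21 (median 14.3) and at 19.999 to 24.9 CPM at ZT15 (median 21.7). For Mthfd1l the log2 fold change was -0.63 ± 0.07 (edgeR adjusted p = 0.00033), and it stayed called with the L code as a factor (edgeR adjusted p = 0.044). Wnt4, a secreted WNT ligand (ENSMUSG00000036856, chr4:137277489-137299726, plus strand), was at 11.9 to 14.2 CPM at ZT21 (median 13.1) and at 19.02 to 25.3 CPM at ZT15 (median 20.5). The log2 fold change was -0.74 ± 0.08 (edgeR adjusted p = 0.00033). In all 3 genes each ZT21 library lay below each ZT15 library.

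Sorcs3, Mcam and Mmp14 went the other way. Sorcs3, a sorting receptor of neurons (ENSMUSG00000063434, chr19:48206025-48805505, plus strand), was at 59.2 to 73.9 CPM at ZT21 (median 64.5) and at 39.6 to 49.3 CPM at ZT15 (median 41.3). The log2 fold change was 0.56 ± 0.06 (edgeR adjusted p = 0.00033). Mcam, an adhesion molecule of vessel walls (ENSMUSG00000032135, chr9:44134469-44142727, plus strand), was at 21.7 to 25.2 CPM at ZT21 (median 23.4) and at 13.8 to 17.9 CPM at ZT15 (median 15.6), a log2 fold change of 0.55 ± 0.07 (edgeR adjusted p = 0.00087). Mmp14, a membrane-anchored protease of the extracellular matrix (ENSMUSG00000000957, chr14:54431612-54445364, plus strand), was at 7.86 to 9.25 CPM at ZT21 (median 8.56) and at 4.09 to 6.26 CPM at ZT15 (median 5.004). In Mmp14 the log2 fold change was 0.73 ± 0.09 (edgeR adjusted p = 0.0012). None of the 3 had overlapping groups.

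Without ZT21 replicate 4, the log2 fold changes of the 11 genes ran from -1.19 in Ciart to 0.72 in Mmp14, and the largest of their edgeR adjusted p values was 0.014, in Nr1d2. On the authors' FPKM scale, which divides by gene length and so allows genes to be compared, Nr1d2 was the most abundant of the 11 at 27.3 FPKM at ZT21 and 35.9 FPKM at ZT15, and Mmp14 the least at 2.00 and 1.19 FPKM at these times. Ciart, with the largest fold, was at 4.59 FPKM at ZT21 and 9.81 FPKM at ZT15. In this bulk RNA, fewer cells of a type and less RNA per cell cannot be told apart.

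The clock list of 24 genes, all tested, held 10 that were lower and 1 that was higher at ZT21, against 3.44% and 4.18% of all genes. Their groups did not overlap in 8 of the 24, against 2.41% of all genes, and the list's median log2 fold change was -0.23. The lower genes were Ciart, Nr1d1, Nr1d2, Dbp, Bhlhe41, Bhlhe40, Per2, Cry2, Tef and Hlf. With 1 library left out in turn, 7 to 12 were called lower, and 5 in each of the 3 further fits (Ciart, Nr1d1, Nr1d2, Dbp and Bhlhe41). Without ZT21 replicate 4, 2 clock genes were called higher and 10 lower.

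Bhlhe40, the partner of Bhlhe41, was at 109 to 176 CPM at ZT21 (median 130) and at 186 to 259 CPM at ZT15 (median 217), with no overlap. Its log2 fold change was -0.73 ± 0.12 (edgeR adjusted p = 0.012), and the edgeR adjusted p was 0.21 without the 3 ZT15 libraries. Per2, a repressor of the loop, was at 43.9 to 88.1 CPM at ZT21 (median 73.1) and at 89.6 to 117 CPM at ZT15 (median 105), also with no overlap. The log2 fold change of Per2 was -0.58 ± 0.14 (edgeR adjusted p = 0.027), and it was called in 8 of the 12 fits that left out 1 library. Tef was at 386 to 449 CPM at ZT21 and 457 to 511 CPM at ZT15 (log2 fold change -0.23, edgeR adjusted p = 0.018). Hlf was at 253 to 323 CPM at ZT21 and 337 to 379 CPM at ZT15 (log2 fold change -0.32, edgeR adjusted p = 0.018). All 6 ZT21 libraries lay below all 6 ZT15 libraries in Tef and in Hlf. Cry2, a cryptochrome repressor, was called with overlapping groups (log2 fold change -0.24, edgeR adjusted p = 0.026).

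Among the activators, Clock was the 1 called, at 119 to 143 CPM at ZT21 (median 136) and 92.4 to 131 CPM at ZT15 (median 111). Its log2 fold change was 0.26 ± 0.07 (edgeR adjusted p = 0.036), and it was called in 4 of the 12 fits that left out 1 library. Arntl was at 42.1 to 55.9 CPM at ZT21 (median 53.3) and at 38.8 to 45.2 CPM at ZT15 (median 43.8), a log2 fold change of 0.23 that did not pass (edgeR adjusted p = 0.054). Npas2, an alternative partner of BMAL1, had a log2 fold change of 0.08 (edgeR adjusted p = 0.38). Per1 was at 77.2 to 117 CPM at ZT21 (median 103) and at 92.2 to 149 CPM at ZT15 (median 133), with overlap and an edgeR adjusted p of 0.063. Per3, Cry1 and the receptors Rora and Rorb, which activate Arntl, were not called, with log2 fold changes of -0.21, -0.25, -0.00 and -0.24 in that order. The repressor Nfil3 (0.21), the casein kinases Csnk1d (-0.06) and Csnk1e (-0.16) and the ubiquitin ligase subunit Fbxl21 (0.37) were not called either.

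Of the 19 clock genes with a promoter window, 5 hold a CACGTG: Bhlhe41, Ciart, Cry1, Per1 and Tef. Of these, Bhlhe41, Ciart and Tef were called and Cry1 and Per1 were not. The window of Per3 holds 2 D-boxes and that of Hlf a TGACGTCA.

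The place of ZT21 and ZT15 in the daily course differed between the genes. Over the 8 ZT groups from ZT0 to ZT21, mean Ciart was 7.85, 7.52, 13.6, 25.4, 31.05, 22.2, 15.3 and 10.4 CPM, and mean Dbp was 33.8, 39.0, 64.0, 91.2, 90.7, 70.4, 58.7 and 41.0 CPM. Both genes thus peaked before ZT15 and were descending through the night. Nr1d1 was at 64.8, 76.0, 110, 127, 113, 101, 80.3 and 61.6 CPM and had its lowest mean at ZT21. Nr1d2, Coq10b, Wnt4, Mthfd1l, Bhlhe41 and Per2 had their highest mean of the 8 groups at ZT15, and Wnt4 its lowest at ZT21. Sorcs3, Mcam, Mmp14 and Clock had their lowest mean at ZT15. ZT15, ZT18 and ZT21 held 6 libraries each and the other groups 12. Without ZT0 replicate 1 and ZT9 replicate 9, which stood apart from the other cortex libraries, mean Dbp was 31.5 CPM at ZT0 and 83.2 CPM at ZT9, so that its highest mean was at ZT12. The times of the highest and lowest means given for the other genes stayed as they were.

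**Figure D4:**
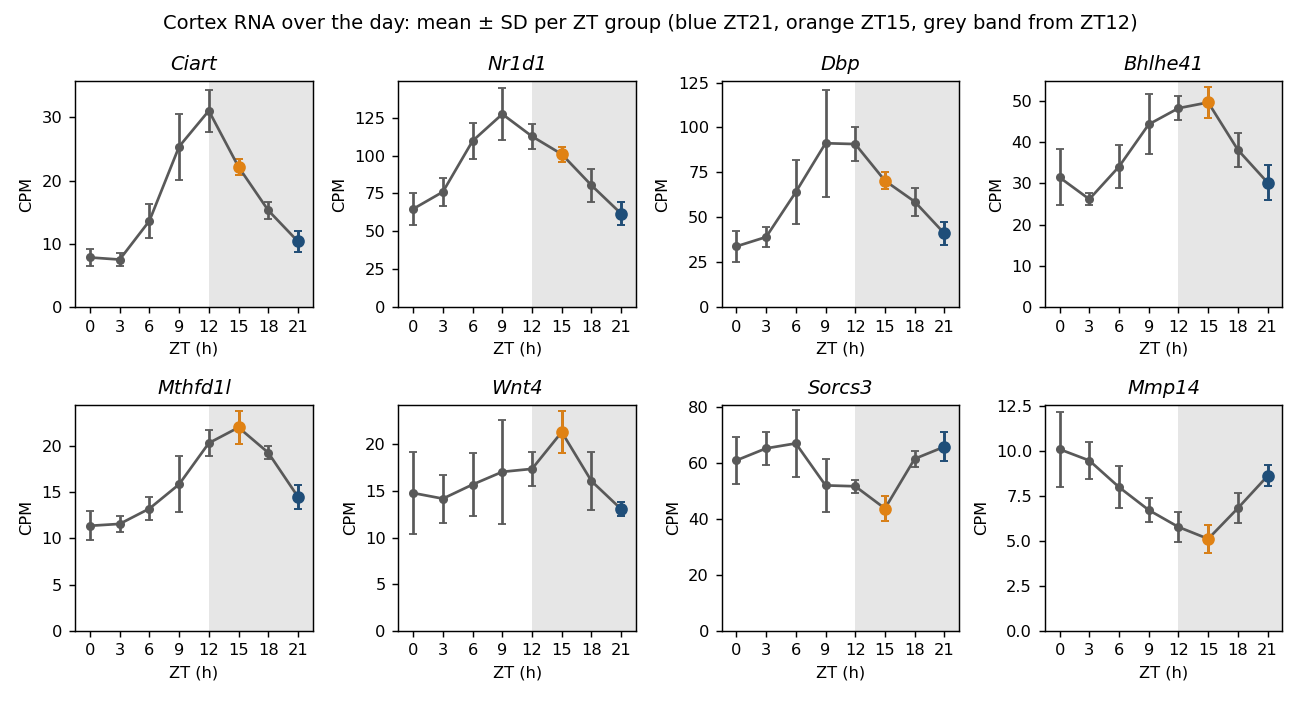
Mean ± SD CPM of 8 genes in cortex at each ZT (linear axes from 0, hours on the horizontal axis), with ZT21 in blue, ZT15 in orange and a grey band from ZT12. Ciart descends from 31.05 CPM at ZT12 to 10.4 CPM at ZT21, and Sorcs3 and Mmp14 have their lowest point at ZT15.

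The ZT18 libraries split the interval into 2 steps, tested in a fit of all 3 night groups. Between ZT18 and ZT15, 3 of 18335 genes were called (0.0164%): Sorcs3 at a log2 fold change of 0.47 (edgeR adjusted p = 0.0017), Ciart at -0.56 (edgeR adjusted p = 0.021) and Pcdh20, a protocadherin, at 0.50 (edgeR adjusted p = 0.047). Between ZT21 and ZT18, 2 were called (0.0109%): Mthfd1l at -0.42 and Ciart at -0.57 (edgeR adjusted p = 0.023 for both). Sorcs3 moved by 0.09 in the second step and was not called there, and Ciart was called in both. Nr1d1 moved by -0.35 and then -0.39 and Mmp14 by 0.40 and then 0.33, uncalled in each step. At an unadjusted p under 0.05 there were 2976 genes in the first step and 496 in the second. The first step gave 407 calls without ZT15 replicate 1, 656 without ZT18 replicate 5, which held 279.6 CPM of striatal markers, and 5 without ZT21 replicate 2. It gave 1 call without any 1 of ZT18 replicates 1 and 2 and ZT15 replicates 2, 3, 5 and 6. The second step gave 4 calls without ZT21 replicate 1, 0 without any 1 of ZT21 replicates 2, 3, 5 and 6 and ZT18 replicates 1, 4 and 5, and 1 without ZT18 replicate 3, ZT18 replicate 6 or ZT15 replicate 6.

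Of 19 tested genes of the glucocorticoid response 7 were lower at ZT21 and 0 were higher, against 3.44% and 4.18% of all genes, with a list median of -0.23. Tsc22d3, a leucine zipper protein induced by corticosterone, was at 61.1 to 73.4 CPM at ZT21 (median 67.5) and at 77.8 to 134 CPM at ZT15 (median 92.4), with no overlap (log2 fold change -0.56 ± 0.12, edgeR adjusted p = 0.020). Plin4, a coat protein of lipid droplets, was at 3.37 to 7.99 CPM at ZT21 (median 4.49) and at 4.503 to 16.98 CPM at ZT15 (median 10.9), with overlap (log2 fold change -1.08 ± 0.30, edgeR adjusted p = 0.041). Plin4 remained called without the 3 ZT15 libraries (edgeR adjusted p = 0.043). That fit leaves out ZT15 replicates 5 and 6, at 4.705 and 4.503 CPM, the ZT15 libraries that lay within the ZT21 range. It also leaves out ZT15 replicate 3, the highest at 16.98 CPM. With the overlapping libraries removed, this call does not show that the difference holds across libraries. Plin4 was called in 12 of the 22 other settings. Nfkbia, the NF-kappa-B inhibitor, Gpd1, a glycerol phosphate dehydrogenase, Klf9, a transcription factor, and the metallothionein genes Mt1 and Mt2 completed the called genes, with log2 fold changes of -0.35, -0.23, -0.20, -0.31 and -0.51 in that order. Mt2 shares 73.5% of its exonic bases with Gm45774. Fkbp5, a co-chaperone of the receptor, had a log2 fold change of -0.23 (edgeR adjusted p = 0.12), and Sgk1, a kinase gene, was at 48.2 to 64.3 CPM at ZT21 and 48.1 to 125 CPM at ZT15 (edgeR adjusted p = 0.054). The lower count was 1 without ZT21 replicate 2 or ZT15 replicate 3, and 3 without ZT21 replicate 3 or ZT15 replicate 5. It was 4 without ZT21 replicate 1 and 9 without ZT15 replicate 1. Of all genes, 37 and 44 were lower without ZT21 replicate 2 and ZT15 replicate 3, and 1638 without ZT15 replicate 1. The list's lower count was 1, 0 and 0 in the fits without the 3 libraries, with the striatal covariate and with Gm42418. Each of these fits called 9 genes lower in all, and the list's median was -0.18 in each.

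Genes induced by neuronal activity were called by edgeR about as often as other genes or not at all, and most had negative log2 fold changes. Of 17 activity-induced transcription factor genes 1 was called, against 7.62% of all genes. It was Jun, which was higher at 25.2 to 34.2 CPM at ZT21 (median 25.7) against 16.8 to 24.0 CPM at ZT15 (median 18.9). Its log2 fold change was 0.46 ± 0.08 (edgeR adjusted p = 0.014), opposite in sign to the list's median of -0.25. Of the 17 genes, 14 had negative and 3 positive log2 fold changes, and DESeq2's Wald test called 1 higher and 2 lower. Fos was at 7.99 to 32.3 CPM at ZT21 (median 24.2) and at 24.4 to 37.6 CPM at ZT15 (median 29.7), with an edgeR adjusted p of 0.21. Of 24 effector genes 0 were called by edgeR (5 at an unadjusted p under 0.05, and 0 by DESeq2's Wald test), with a median of -0.18. Log2 fold changes were negative in 17 of these 24 genes and positive in 7. Among all 17863 genes tested, 5184 had an unadjusted p under 0.05, and DESeq2's Wald test called 2389. Arc, the synaptic effector, spread over 58.3 to 432 CPM at ZT21 (median 285) and 149 to 528 CPM at ZT15 (median 312), so its log2 fold change of -0.41 lay within the spread of either group (edgeR adjusted p = 0.52).

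Stress and temperature lists gave 0 to 3 lower and 0 to 1 higher genes each, against 3.44% of all genes lower and 4.18% higher. Rbm3, an RNA-binding protein induced by cold, was at 33.4 to 38.2 CPM at ZT21 (median 35.7) and at 39.0 to 46.8 CPM at ZT15 (median 44.3), with no overlap (log2 fold change -0.30 ± 0.05, edgeR adjusted p = 0.014). With the splicing factor gene Srsf2 (-0.15) it made 2 lower genes of 14 on the list of cold-inducible and splicing genes, while Cirbp, its relative, had -0.29 (edgeR adjusted p = 0.077). Of 22 cytosolic chaperones 1 was higher, Hspa4 (0.15, edgeR adjusted p = 0.043). Of 20 endoplasmic reticulum genes 2 were lower, the co-chaperone Dnajb9, at 41.3 to 45.6 CPM at ZT21 and 49.9 to 61.5 CPM at ZT15 (-0.32, edgeR adjusted p = 0.014), and Herpud1 (-0.47, edgeR adjusted p = 0.018). The integrated stress response had 1 higher gene of 17, Trib3 (0.78), and 3 lower, the transcription factor Atf4 (-0.27) and the amino acid transporter subunits Slc7a5 (-0.29) and Slc3a2 (-0.22). Of 15 NRF2 antioxidant genes 2 were lower, heme oxygenase Hmox1 at 3.16 to 4.13 CPM at ZT21 and 4.25 to 6.91 CPM at ZT15 (-0.66, edgeR adjusted p = 0.020) and glutathione reductase Gsr (-0.19, edgeR adjusted p = 0.038).

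Of 12 feedback regulators of ERK signalling 3 were lower, Spred2 (-0.36), Dusp7 (-0.19) and Dusp14 (-0.44), against 3.44% of all genes. The count was 0 without any 1 of ZT21 replicates 1, 2 and 3 and ZT15 replicates 3, 5 and 6, 1 without ZT21 replicate 4, and 0 with all 78 cortex libraries and in the 3 further fits. Of 17 FOXO target and fuel switch genes 1 was higher and 0 were lower by edgeR, with a list median of -0.05. Cholesterol synthesis (24 tested), SRF and YAP targets (13) and interferon-stimulated genes (16) had 0 calls by edgeR with all 12 libraries (9, 5 and 2 genes at an unadjusted p under 0.05, and 5, 2 and 1 calls by DESeq2's Wald test), and list medians of -0.02, -0.02 and -0.00 in that order. Of all 17863 genes tested, 5184 had an unadjusted p under 0.05, and 2389 were called by DESeq2's Wald test. Single libraries moved the counts of the lists. Without ZT21 replicate 2 or ZT15 replicate 3 the lower genes were 1 for the endoplasmic reticulum, 0 for the integrated stress response, 1 for cold and 0 for NRF2, and without ZT15 replicate 1 they were 4, 5, 2 and 3. In the 3 further fits they were 0 in each of these 4 lists, where 9 of all genes were lower in each fit.

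Calls among receptor and channel genes were mostly upward. Of 34 glutamate and GABA receptor subunits 10 were higher at ZT21 and 0 lower, against 4.18% of all genes higher, with a list median of 0.13. Gabra2, a GABA-A receptor subunit, had the smallest adjusted p, at 77.6 to 84.6 CPM at ZT21 (median 81.1) and 59.3 to 70.2 CPM at ZT15 (median 64.0). Its log2 fold change was 0.30 ± 0.04 (edgeR adjusted p = 0.0021), and the edgeR adjusted p was 0.041 with the striatal covariate, 0.029 with Gm42418 and 0.057 without the 3 ZT15 libraries. Grin2b, an NMDA receptor subunit, was at 644 to 747 CPM at ZT21 (median 690) and at 415 to 653 CPM at ZT15 (median 449), overlapping through 1 ZT15 library (log2 fold change 0.49, edgeR adjusted p = 0.014). Grm5, a metabotropic glutamate receptor, was at 260 to 298 CPM at ZT21 and 149 to 274 CPM at ZT15 (0.48, edgeR adjusted p = 0.023).

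Among the other called subunits were Gria1 (0.25), Grin3a (0.32), Grik2 (0.52), Grm3 (0.19), Grm7 (0.19) and Gabrb1 (0.34). Of the subunits, 2 were called higher without ZT21 replicate 2 or ZT15 replicate 3, 3 without ZT15 replicate 5, 6 without ZT21 replicate 1, ZT21 replicate 3 or ZT15 replicate 6 and 14 without ZT15 replicate 1. Of all genes, 34 and 40 were higher without ZT21 replicate 2 and ZT15 replicate 3, and 1802 without ZT15 replicate 1. In the fits without ZT15 replicate 1, without ZT15 replicate 4 and by DESeq2's Wald test 1 subunit was called lower, and 9 of the 34 had negative log2 fold changes. Without the 3 ZT15 libraries, with the striatal covariate and with Gm42418 the count was 0, 1 and 1. Of all genes, 3, 4 and 5 were higher in these fits, and the list's median was 0.05, 0.07 and 0.06. Of 32 potassium channel genes 4 were higher and 0 lower: Kcna4 (0.57), Kcns2 (0.45), Kcnn3 (0.52) and Kcnma1, which was at 94.6 to 138 CPM at ZT21 and 42.8 to 123 CPM at ZT15 (0.71, edgeR adjusted p = 0.041). The count of channels was 0 without ZT21 replicate 2, ZT15 replicate 3 or ZT15 replicate 5 and in the 3 further fits. Without ZT15 replicate 1 there were 6 higher and 2 lower, and by DESeq2's Wald test 5 higher and 1 lower, and 14 of the 32 had negative log2 fold changes.

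Lists of housekeeping genes had small negative medians. Of 49 subunits of oxidative phosphorylation 48 had a negative log2 fold change, with a median of -0.15, and 6 were called, all lower, against 3.44% of all genes, among them Cox5a, Cox6b1, Cox6c, Cox7a2 and Cox7b of the terminal oxidase. The lower count was 25 without ZT15 replicate 1, 19 without ZT15 replicate 4 and 0 without any 1 of ZT21 replicates 1, 2, 3 and 6 and ZT15 replicates 3, 5 and 6. Of all genes, 1638 were lower without ZT15 replicate 1, 916 without ZT15 replicate 4 and 37 without ZT21 replicate 2. The list's lower count was also 0 without the 3 ZT15 libraries and with the striatal and Gm42418 covariates. In these 3 fits 9 of all genes were lower each time, and the list's median was -0.04, -0.07 and -0.05 in that order. Of 54 ribosomal protein genes 2 were lower, Rpl19 and Rps14, a share near the 3.44% of all genes, with a list median of -0.12. The count was 0 in 8 of the 12 fits that left out 1 library and in the 3 further fits, and 10 without ZT15 replicate 1.

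**Figure D5:**
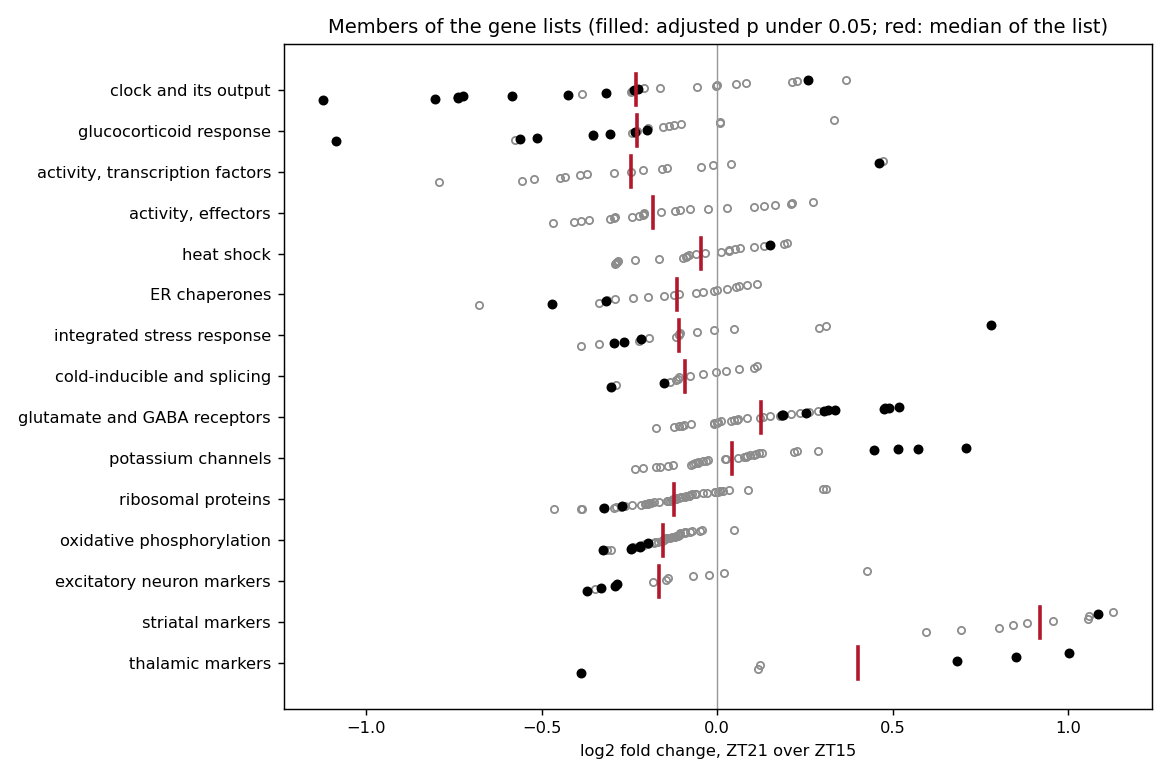
Log2 fold change, ZT21 over ZT15, of each tested member of 15 gene lists (linear axis), filled where the edgeR adjusted p was under 0.05, with the list's median in red. The medians of the clock and glucocorticoid lists are at -0.23, that of receptor subunits is at 0.13 and that of striatal markers is at 0.92.

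Markers of excitatory neurons of the cortex were detected at both times, and their levels are not compared here with those of other tissues. Slc17a7, which loads glutamate into the vesicles of excitatory neurons, was at 942 to 1098 CPM at ZT21 and 1011 to 1292 CPM at ZT15 (log2 fold change -0.15, edgeR adjusted p = 0.17). Of 12 excitatory markers 4 were lower, against 3.44% of all genes, among them Neurod6, Neurod2 and Cux2, the last a factor of upper cortical layers at 77.96 to 91.1 CPM at ZT21 and 96.5 to 117 CPM at ZT15 (-0.33, edgeR adjusted p = 0.012). The summed excitatory markers overlapped, at 4730 to 5535 CPM at ZT21 and 4873 to 6027 CPM at ZT15. Of 10 inhibitory neuron markers 2 were lower, Pvalb (-0.63) and Npy (-0.52), with sums of 1011 to 1199 CPM at ZT21 and 1051 to 1108 CPM at ZT15. Log2 fold changes were positive in 4 of these 10 markers and negative in 6.

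Among markers of tissue next to the cortex, the summed thalamic ones separated the groups. The striatal, meningeal, choroid plexus and hippocampal sums overlapped. All 10 striatal markers had positive log2 fold changes with a median of 0.92, 1 of which was called, the opioid precursor Penk, at 129 to 410 CPM at ZT21 (median 223) and 41.7 to 198 CPM at ZT15 (median 105). Drd2, a dopamine receptor of these neurons, was at 15.9 to 48.4 CPM at ZT21 and 1.18 to 28.5 CPM at ZT15 (edgeR adjusted p = 0.15). The striatal median was 0.29 without the 3 ZT15 libraries, and 8 striatal markers were called without ZT15 replicate 1. Summed thalamic markers did not overlap, at 61.0 to 77.3 CPM at ZT21 (median 69.6) and 43.3 to 58.3 CPM at ZT15 (median 52.5). Of 6 thalamic markers tested, of 8 listed, 3 were higher and 1 lower, against 4.18% and 3.44% of all genes, among them Prkcd, a protein kinase C, at 11.2 to 20.5 CPM at ZT21 and 8.37 to 10.6 CPM at ZT15 (0.68, edgeR adjusted p = 0.018). The other higher markers were Zic1 and Zic4. Zic1 was at 9.86 to 25.2 CPM at ZT21 and 6.38 to 16.7 CPM at ZT15. Zic4 was at 1.82 to 8.29 CPM at ZT21 and 1.52 to 3.08 CPM at ZT15, and the groups overlapped in both genes. The lower marker was Lef1, at 3.58 to 4.80 CPM at ZT21 and 4.78 to 6.26 CPM at ZT15 (-0.39). Whether the thalamic sum separates the groups without Prkcd, Zic1 and Zic4 was not tested. Among the 8 thalamic markers, 1 was at 0 in each of ZT21 replicates 5 and 6, 2 were at 0 in ZT15 replicate 3 and 1 in each of ZT15 replicates 5 and 6. Summed meningeal markers were at 75.6 to 126 CPM at ZT21 and 50.8 to 93.2 CPM at ZT15, with Slc6a13 (0.81), Igf2 (0.44) and Col1a1 (0.84) called higher of 10. Without ZT21 replicate 4, 1 thalamic marker was higher and 0 lower, without ZT15 replicate 3 none was called by edgeR, and in the 3 further fits 0 were higher and 0 lower. The thalamic median was 0.40 with all 12 libraries. It was 0.33 without the 3 ZT15 libraries, 0.41 with the striatal covariate and 0.42 with Gm42418. The part of thalamic and meningeal RNA in the other results was not tested.

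Glial and vascular markers gave further calls, to be read against 4.18% of all genes higher and 3.44% lower. Of 6 markers of oligodendrocyte precursors 3 were higher, the growth factor receptor Pdgfra (0.25), the proteoglycan Cspg4 (0.40) and the transcription factor Olig1 (0.32), with sums of 433 to 479 CPM at ZT21 and 390 to 449 CPM at ZT15. Of 14 blood-brain barrier markers 4 were lower, among them the lipid transporter Mfsd2a (-0.51) and the glucose transporter Slc2a1 (-0.32), and 2 of 8 mural markers were higher, Myh11 (0.61) and Cspg4. However, 8 of the 14 barrier markers had positive log2 fold changes and 6 negative ones, with a median of 0.02. Of the 8 mural markers 5 were positive and 3 negative. The sums of both lists overlapped, at 448 to 476 CPM at ZT21 and 450 to 553 CPM at ZT15 for the barrier and at 227 to 268 CPM at ZT21 and 224 to 261 CPM at ZT15 for mural cells. Oligodendrocytes gave 1 higher marker of 10, Opalin (0.39), astrocytes 1 lower of 10, Gjb6 (-0.42), and choroid plexus 1 higher of 8, Prlr (1.04). Log2 fold changes were positive in 6 of 10 oligodendrocyte markers, 4 of 10 astrocyte markers and 6 of 8 choroid plexus markers. Microglia (11 tested), blood (5) and hippocampus (2) gave 0 by edgeR, with 1, 0 and 0 genes at an unadjusted p under 0.05 and 0 by DESeq2's Wald test in each. Over all 17863 genes tested these 2 counts were 5184 and 2389. Without ZT21 replicate 2 or ZT15 replicate 3 the calls were 1 for excitatory neurons, 0 for precursors, 0 for the barrier, 0 for mural cells and 1 for the meninges, and in the 3 further fits they were 0 in each of these lists. Over all genes the calls were 71 and 84 without these libraries, and 12, 13 and 14 in the 3 further fits.

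The 12 called genes with the largest fold changes upward, models named Gm or Rik apart, included transcripts of low level. Dlk1, an imprinted Notch ligand, was at 1.04 to 8.59 CPM at ZT21 (median 2.38) and at 0.368 to 1.38 CPM at ZT15 (median 0.833), a log2 fold change of 1.98 (edgeR adjusted p = 0.026). Scn9a, a sodium channel subunit, was at 2.82 to 3.62 CPM at ZT21 (median 3.12) and at 0.525 to 2.52 CPM at ZT15 (median 0.947), with no overlap (1.48 ± 0.27, edgeR adjusted p = 0.016). Ankfn1 was at 2.42 to 3.96 CPM at ZT21 (median 3.07) and at 0.660 to 2.36 CPM at ZT15 (median 1.18), also apart (1.27 ± 0.22, edgeR adjusted p = 0.013). Both were called in all 12 fits that left out 1 library. Baiap3, which acts in vesicle release (1.34), Fzd3, a WNT receptor (1.32), and Htr2c, a serotonin receptor (1.19), overlapped through ZT15 replicate 1, their highest ZT15 library. Htr2c was at 26.9 to 55.7 CPM at ZT21 (median 35.5) and 9.93 to 35.6 CPM at ZT15 (median 13.9). None of the 12 was called without the 3 ZT15 libraries or with either covariate.

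Downward, with models named Gm or Rik left aside, the largest fold changes were in small structured RNAs and in Lars2. Among those models, Gm42418 was itself called lower (log2 fold change -2.78, edgeR adjusted p = 0.041). Rpph1, the RNA of ribonuclease P, was at 0.0288 to 1.35 CPM at ZT21 (median 0.215) and at 0 to 7.98 CPM at ZT15 (median 3.55), and Rny1, a Y RNA, had a log2 fold change of -3.17. Lars2, a mitochondrial leucyl-tRNA synthetase, was at 123 to 491 CPM at ZT21 (median 167) and at 93.1 to 1927 CPM at ZT15 (median 895). Its log2 fold change was -1.99 (edgeR adjusted p = 0.048), and 0.16 with Gm42418 as a covariate. Klhl40, known from skeletal muscle, was at 3.00 to 4.84 CPM at ZT21 (median 3.78) and at 6.17 to 7.51 CPM at ZT15 (median 6.64), with no overlap and calls in all 12 fits that left out 1 library (-0.82 ± 0.12, edgeR adjusted p = 0.0047). In the 3 further fits its edgeR adjusted p was 0.15, 0.085 and 0.052. Tcap, a sarcomere protein gene, had a log2 fold change of -0.74 (edgeR adjusted p = 0.013).

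The same 12 mice gave hypothalamus and liver. In hypothalamus, 0 of 18562 genes (0%) were called between ZT21 and ZT15 by edgeR, with 636 at an unadjusted p under 0.05. In a joint fit with the mouse as a block, the change in cortex differed from that in hypothalamus in 0 of 19322 genes (0%) by edgeR, with 1536 at an unadjusted p under 0.05 and 17 calls by DESeq2's Wald test. Ciart averaged 10.3 CPM at ZT21 and 11.9 CPM at ZT15 in hypothalamus, a log2 fold change of -0.19 ± 0.13, and the difference of cortex minus hypothalamus was -0.95 (edgeR adjusted p = 0.079). For Nr1d1 that difference was -0.53 (edgeR adjusted p = 0.51) and for Dbp -0.32 (edgeR adjusted p = 0.57). The count of 0 became 12 without the mouse of ZT15 replicate 1.

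In liver 759 of 14780 genes (5.14%) were called, and the change differed between cortex and liver in 406 of 19175 genes (2.12%), 165 with the higher and 241 with the lower log2 value in cortex. The count was 85 without the 3 mice of the ZT15 libraries named above, and 225, 233 and 226 without the mice of ZT15 replicate 3, ZT15 replicate 5 and ZT21 replicate 2. Of the 24 clock genes 9 differed. Ciart averaged 1.75 CPM at ZT21 and 13.5 CPM at ZT15 in liver, a log2 fold change of -2.97 ± 0.38 against -1.12 in cortex, and cortex minus liver was 1.82 (edgeR adjusted p = 0.012). Dbp fell further in liver in the same way (-2.78, cortex minus liver 1.89, edgeR adjusted p = 0.00015), as did Nr1d1 (-2.38, 1.74, edgeR adjusted p = 0.014) and Nr1d2 (-1.91, 1.51, edgeR adjusted p = 0.0022). Npas2 averaged 8.16 CPM at ZT21 and 0.0564 CPM at ZT15 in liver, while in cortex it averaged 53.6 CPM at ZT21 and 49.6 CPM at ZT15 (cortex minus liver -6.84, edgeR adjusted p = 4.4e-06). Its liver level at ZT15 was near 0, so the size of this difference is uncertain. Arntl rose by 1.36 in liver (cortex minus liver -1.20, edgeR adjusted p = 0.00059). The differences of Bhlhe41 (0.33, edgeR adjusted p = 0.65) and Coq10b (0.35, edgeR adjusted p = 0.27) did not pass, and in liver both were lower at ZT21 (-1.10 with edgeR adjusted p = 0.023, and -0.95 with edgeR adjusted p = 0.00087).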

How the data were processed

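Messenger RNA was measured by sequencing of total RNA from the cortex of 12 mice at ZT21 and ZT15, 1 library per mouse, with 6 cortex libraries at ZT18 and the hypothalamus and liver of the same 12 mice beside them. Per the labels' protocols, RNA came from frozen tissue by the Qiagen miRNeasy kit, with Illumina library chemistry. STAR 2.7.3a and HTSeq 0.10.0, with GRCm38 and mm10, are named in the submitters' processing notes. The sources used here name neither an annotation release nor a strand setting, so genes that overlap on opposite strands may share counts. The authors deposited raw counts per Ensembl gene and FPKM values per gene, which they scaled by gene length and library total. All tests used the counts as deposited. Of 48795 identifiers 48349 matched a symbol, and positions come from GENCODE M21.

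Libraries were grouped by the ZT in the labels. Genes passed filterByExpr, libraries were scaled by TMM, and groups were compared with edgeR 4.0.16 (quasi-likelihood test, Benjamini-Hochberg adjustment over all genes tested, calls at 0.05). CPM are counts over the library total. Means are given ± SD and log2 fold changes ± standard error. The test was checked on simulated counts. These had the same dispersion in all genes and no differences in RNA content between libraries of a group. The check therefore does not cover the differences seen among the ZT15 libraries. Tissues were compared through the interaction of tissue and ZT with the mouse as a block. Other settings were DESeq2 1.42.0, DESeq2 size factors, no filter on low counts, a replicate block, the L code as a factor, all cortex libraries (with and without 2 that stood apart) and each library left out. The fits without ZT15 replicates 3, 5 and 6, with the striatal sum and with Gm42418 were chosen after seeing the data.

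The genes compared and the 32 gene lists (18 pathways and 14 marker lists) were chosen with earlier results of these data known. Of 557 list entries 555 matched a gene. Named genes are the 12 called genes with the largest and the 12 with the smallest fold change at a mean log2 CPM of at least 1 (models named Gm or Rik skipped), the clock list, up to 5 called members with the smallest adjusted p per other list, and 5 genes per tissue interaction. Arc, Fos, Fkbp5, Sgk1, Drd2, Cirbp, Klf9, Grin3a, Grik2, Grm3, Grm7, Gabrb1 and Pcdh20, like the 11 genes that lead the results, were named after their values were seen. Libraries of a group come from different mice by their codes. Some genes that the rule names are not reported here.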

Additional observations from a re-analysis of the deposited data

Results flagged for a closer look

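Single libraries far from the other 5 of their group were looked for by Dixon's test at its 95% level in 272 groups of values, and 19 were found. Chance flags about 1 in 20 groups. ZT15 replicate 1 was the high one in Jun (23.9955 CPM), Gabrb1 (186.276 CPM), Baiap3 (8.07703 CPM), Fzd3 (20.1253 CPM) and Htr2c (35.6062 CPM). ZT21 replicate 4 was the low one in Csnk1d (133.431 CPM) and the high one in Rpph1 (1.35462 CPM) and Rny1 (2.25771 CPM). ZT21 replicate 5 was the high one in Bhlhe41 (38.3289 CPM), Kcnn3 (47.6178 CPM), Cox6c (135.188 CPM) and Elovl5 (83.9741 CPM). ZT21 replicate 2 was the high one in Jun (34.1634 CPM) and in the summed choroid plexus markers (82.5744 CPM), and the low one in Cux2 (77.9594 CPM) and Gjb6 (44.3535 CPM). The remaining ones were ZT21 replicate 6, high in Csnk1e (124.653 CPM), ZT21 replicate 3, low in Slc2a1 (71.0065 CPM), and ZT15 replicate 4, high in the summed astrocyte markers (5618.99 CPM). No cause was tested.

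Changes that differed between cortex and liver of the same mice were found by the interaction test of edgeR, as cortex minus liver in the log2 fold change of ZT21 over ZT15. Among clock genes the difference was 1.82 for Ciart, 1.74 for Nr1d1, 1.51 for Nr1d2, 1.89 for Dbp, 1.66 for Per3, 0.84 for Tef, -0.87 for Cry1, -1.20 for Arntl and -6.84 for Npas2. The size for Npas2 rests on a liver level near 0 at ZT15. In liver Per3 fell by 1.87 and Tef by 1.09, and Cry1 rose by 0.58. Among the other named genes it was -1.03 for Plin4, 1.24 for Fkbp5, -1.35 for Sgk1, -0.52 for Gsr and 1.42 for Kcnma1, which was at 0.151 CPM at ZT21 and 0.249 CPM at ZT15 in liver. The genes with the smallest adjusted p were Ppard, a nuclear receptor for fatty acids (-2.22), Ethe1, a mitochondrial sulfur dioxygenase (-1.496), Elovl5, a fatty acid elongase (-1.32), Car14, a carbonic anhydrase (-1.09), and Npas2. In cortex Ppard averaged 21.6 CPM at ZT21 and 24.6 CPM at ZT15, and in liver it was at 34.5 ± 9.68 CPM at ZT21 and 8.37 ± 1.76 CPM at ZT15 (SD, n = 6 each).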

How the results depend on the processing

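The 1362 calls between ZT21 and ZT15 became 2389 with DESeq2's Wald test (1254 higher, 1135 lower), 210 with all 78 cortex libraries in the fit (105 and 105), 745 with 2 libraries that stood apart removed from it (352 and 393), and 7 with the L code as a factor (0 and 7). They became 12 without the 3 ZT15 libraries, 13 with the striatal sum and 14 with Gm42418 as a covariate, and 71 to 3440 with 1 library left out. With DESeq2 size factors there were 1335 and with no filter on low counts 1262. The replicate numbers did not pair the libraries (correlations of deviations from -0.175 to 0.217), and a replicate block gave 1681 calls, 1141 of them shared. For ZT18 against ZT15, the 3 calls became 118 with DESeq2's Wald test, 111 with a replicate block, 0 with all cortex libraries and 1 to 656 with 1 library left out. For ZT21 against ZT18, the 2 calls became 4, 0 and 0 in these settings and 0 to 4. Cortex against hypothalamus gave 17 with DESeq2's Wald test, 3 with no filter and 0 to 12 with 1 mouse left out, against 0. Cortex against liver gave 628 with DESeq2's Wald test, 648 with no mouse block, 85 without the 3 mice, and 225 (ZT15 replicate 3), 226 (ZT21 replicate 2), 233 (ZT15 replicate 5) and up to 465 (ZT15 replicate 4) with 1 mouse left out, against 406. Of 122 genes looked at 1 by 1, 101 were called, 5 of them in all 22 settings (Ciart, Nr1d1, Nr1d2, Dbp and Mthfd1l) and 96 not in all. In 3 genes the log2 fold change reversed: Gm42418 (0.57 with the L code, and 0.0057 with its own level as a covariate, which sets that value near 0 by construction), Rpph1 (0.54 with the L code) and Lars2 (0.77 with the L code, 0.16 with Gm42418). The cause was not tested. The fit without the 3 libraries has fewer samples, and the fit with the L code rests on the 6 libraries of L6 and L7. The striatal sum and Gm42418 each had medians that differed between the times. At this depth a count of 0 allows up to 3 counts, 0.101 CPM in ZT15 replicate 1, where Rpph1 was at 0.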
